A study of Mus musculus with 6 samples.

Results

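The Bcl-2 family decides, at the outer membrane of the mitochondrion, whether a cell starts apoptosis. Of its genes, 10 were listed by name, and 9 of the 10 (Bcl2, Bcl2l1, Mcl1, Bak1, Bid, Bcl2l11, Bbc3, Bad and Bik) had a probe set with a single gene symbol in the platform annotation, out of 19938 genes found that way on 21789 probe sets. Bax was not listed there and was not analysed here. Each of the 9 genes had 1 probe set, so no choice between probe sets was needed. The samples were 6 one-colour Affymetrix arrays of RNA labelled as aorta from mice aged 6 weeks, 3 labelled Trail knockout and 3 labelled wild type. The strain label is C57Bl6/J in both groups, and the knockout line came from Amgen. Tnfsf10 encodes Trail, a ligand that can trigger apoptosis through receptors on the cell surface. The design asked what its loss does to gene expression in the aorta. The labels do not say which part of the gene was deleted, or whether an array held RNA of 1 animal or of a pool. The p-values below therefore measure the spread between these samples only, and that spread may be technical.

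Members of the family fall into 3 kinds by role. Guardians such as Bcl2, Bcl2l1 (Bcl-xL) and Mcl1 hold the pore-forming effectors Bak1 and Bax in check, and when the effectors are released they open the outer membrane and let cytochrome c out. BH3-only proteins such as Bid, Bcl2l11 (Bim), Bbc3 (Puma), Bad and Bik sense stress and either block the guardians or activate the effectors. Bid links the death receptors to this step, because caspase-8 cuts it after a ligand such as Trail has bound its receptor. Much of the family is controlled at the protein level, by cleavage, phosphorylation and degradation, which an array of transcripts does not see.

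The deleted gene and the tissue markers show how far the arrays matched their labels. Tnfsf10 gave log2 signals of 5.02, 4.48 and 4.09 on the arrays labelled knockout 1, 2 and 3, and of 8.42, 4.90 and 4.85 on those labelled wild type 1, 2 and 3. Only the array labelled wild type 1 was clearly above the knockout arrays. Wild type 2 and 3 lay below knockout 1, and without wild type 1 the difference was -0.35 (SE 0.25) with overlapping groups. Tnfsf10 also lay among the 40% dimmest annotated probe sets, below the signal limit of the test. It therefore does not tell wild type 2 and 3 from the knockout arrays. The directions below, with or without wild type 1, follow the labels alone. The smooth muscle markers, which define the wall of the aorta, had list medians of 9.54 to 10.51, and the endothelial markers of 7.40 to 8.93. On the array labelled wild type 1, 10 of 10 skeletal muscle and 10 of 10 squamous epithelium markers lay more than 2-fold lower than on any other, while 6 of 7 brown fat, 7 of 7 white fat, 4 of 8 endothelial and 7 of 8 interferon-stimulated genes were over 2-fold above. The skeletal muscle list had a median of 5.92 there and of 11.83 to 12.35 elsewhere. For the squamous list it was 5.01 there and 10.98 to 11.32 elsewhere. On every array but wild type 1, both lists thus had higher medians than the smooth muscle list. The stomach epithelium list had a median of 12.43 on the array labelled knockout 2, against 7.27 on wild type 3 and 4.93 to 5.47 on the others. Lung epithelium genes had a list median of 7.11 on knockout 1 and of at most 5.40 elsewhere. The white fat list had medians of 8.91, 8.38 and 7.03 on the knockout arrays and of 11.03, 6.54 and 6.96 on the wild-type arrays. In such tissue RNA, fewer cells of a type and less RNA per cell cannot be told apart.

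**Figure D1:**
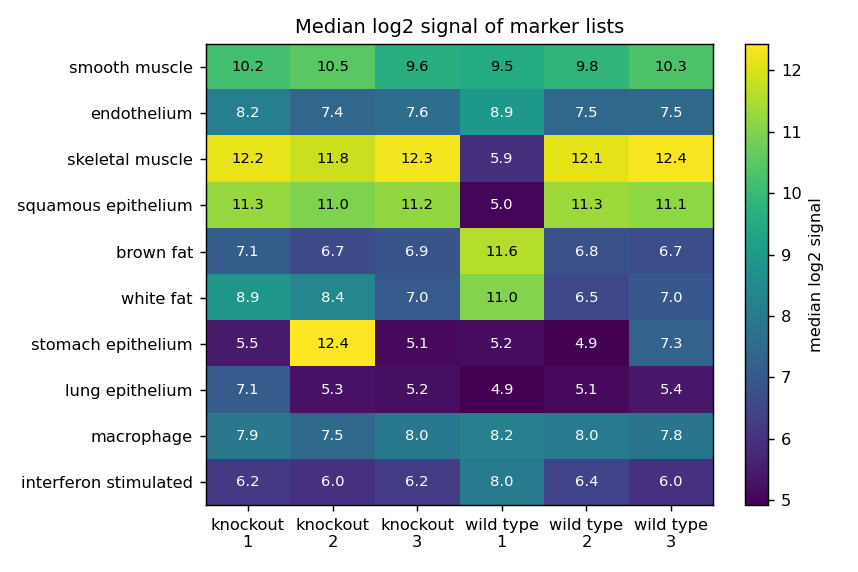
Median log2 signal of 10 marker lists (rows) on the 6 arrays (columns), with the median written in each cell and shown by colour. The array labelled wild type 1 has low skeletal muscle and squamous epithelium medians (5.92 and 5.01, against at least 11.83 and 10.98 on every other array). It has high brown and white fat medians (11.59 and 11.03), and knockout 2 has a stomach median of 12.43.

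None of the 9 measured members passed the test between the genotypes. In the main limma fit (all 6 arrays, equal weights), 0 of the 9 reached an adjusted p under 0.05, and 0 of the 9 reached 0.05 without adjustment. Over the 14046 probe sets tested, 0% passed the adjusted threshold and 0.634% (89 probe sets) the unadjusted one, and an unmoderated test run as an alternative gave 0 and 184 probe sets. Log2 differences (knockout minus wild type) ran from -0.22 for Bak1 to 0.26 for Bik, and the limma adjusted p of the members lay between 0.921 and 0.951. Of the 9, 6 were lower and 3 higher in the knockout, a share of 66.7% lower that stands beside 56.5% over all probe sets tested, and the members' median difference was -0.11 against -0.03. Without the array labelled wild type 1, 5 members were lower and 4 higher beside 58.4% lower over all probe sets, and the members' median was -0.01 against -0.03. Of the members, Bbc3 lay under the signal limit of the test, while the shares over all probe sets cover those above it. The groups overlapped for all 9 members, and they did not overlap for 5.6% of the probe sets tested. The 95% intervals set the limits of what these arrays could show. On all 6 arrays the interval reaching furthest from no change was that of Bik, up to a 1.65-fold change upward. For each of the 9 transcripts the interval held no change larger than this. Without wild type 1 the log2 interval of Bik ran further, from -0.14 to 0.80. These intervals are of the mixed tissue signal, and set no limit on a change within 1 cell type.

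**Figure D2:**
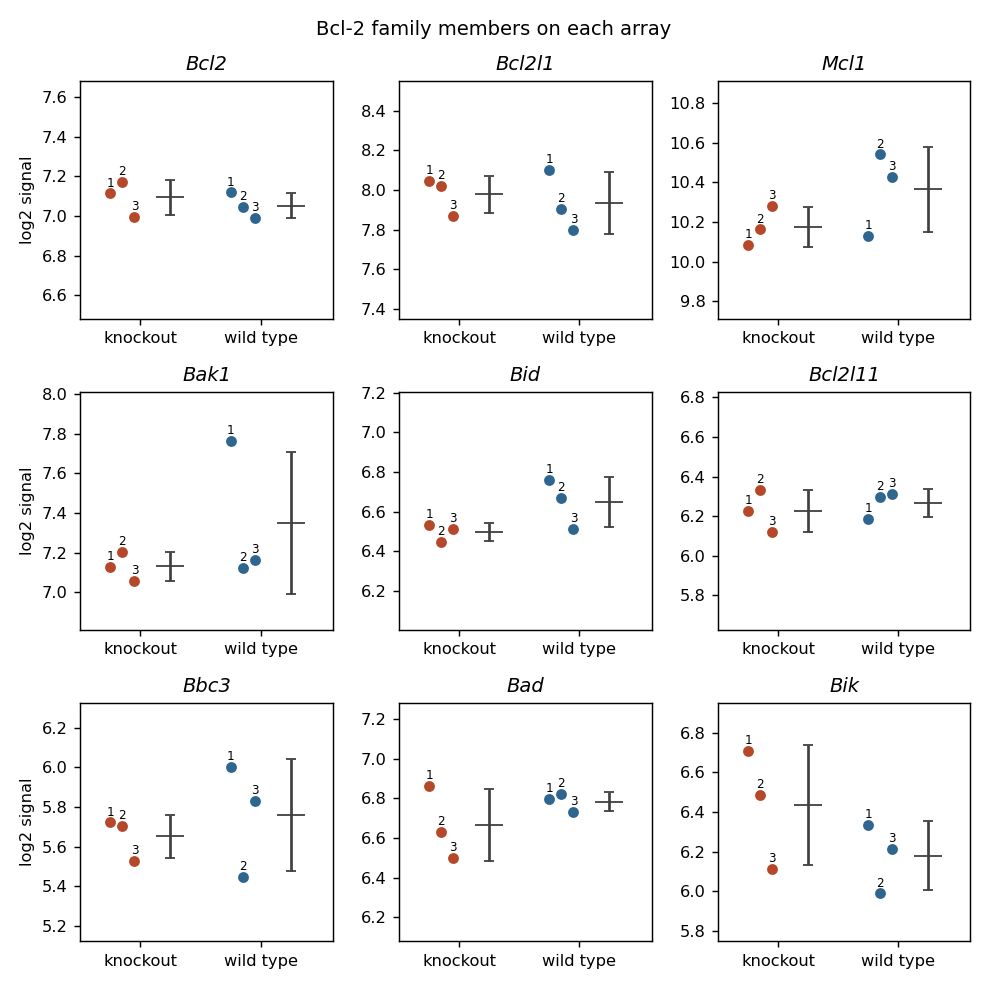
Log2 signal of the 9 members on each array, in panels of equal height (1.2 log2 units), with points numbered by replicate and a bar for the group mean ± SD (n = 3). The groups overlap in every panel, and the point of wild type 1 stands apart for Bak1, at 7.77 against 7.06 to 7.21 on the other 5 arrays.

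Among the guardians, Bcl2 was the steadiest. Bcl2, the founding inhibitor of apoptosis in the family, gave 7.11, 7.17 and 7.00 on the arrays labelled knockout 1, 2 and 3 and 7.12, 7.05 and 6.99 on those labelled wild type 1, 2 and 3. No array stood out and the groups overlapped throughout. The group means were 7.09 ± 0.09 (SD, n = 3) in the knockout and 7.05 ± 0.06 (SD, n = 3) in the wild type, a difference of 0.04 (SE 0.10, 95% interval -0.21 to 0.29, limma adjusted p = 0.938). Its SD over the 6 arrays, 0.07, was smaller than that of all but 4.19% of the probe sets tested.

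Bcl2l1 encodes Bcl-xL, which protects many long-lived cells. It gave 8.04, 8.02 and 7.87 on the knockout arrays and 8.10, 7.90 and 7.80 on the wild-type arrays, again with overlapping groups. Group means came to 7.98 ± 0.09 (SD, n = 3) in the knockout and 7.93 ± 0.16 (SD, n = 3) in the wild type, a difference of 0.04 (SE 0.13, 95% interval -0.27 to 0.36, limma adjusted p = 0.950). For both genes the 3 highest signals were those of knockout 1, knockout 2 and wild type 1, arrays of both genotypes. These are also the arrays with the highest white fat medians given above. Of these 3, wild type 1 had the highest white fat median and the highest Bcl2l1 signal, but a Bcl2 signal below that of knockout 2. How often these arrays rank together over all probe sets was not counted. The part of that tissue in the Bcl2 and Bcl2l1 signals was not tested.

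Mcl1, a guardian with a short-lived protein and a transcript that responds quickly to stimuli, ran the other way across the arrays. Its signals were 10.08, 10.16 and 10.28 on the knockout arrays and 10.13, 10.54 and 10.43 on the wild-type arrays. The 3 knockout arrays were below wild type 2 and 3, and wild type 1 lay among the knockout arrays. Knockout signals averaged 10.18 ± 0.10 (SD, n = 3), and wild-type signals 10.37 ± 0.21 (SD, n = 3), a difference of -0.19 (SE 0.15, 95% interval -0.55 to 0.18, limma adjusted p = 0.921).

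Without the array labelled wild type 1, Mcl1 differed by -0.31 (SE 0.11, 95% interval -0.57 to -0.05, limma adjusted p = 0.997). It was then 1 of 9 members with an unadjusted p under 0.05, against 1.54% of the probe sets tested, and 1 of 9 with every knockout array below every wild-type array, against 8.45%. No member had every knockout array above, against 4.13%. The smallest gap between the groups was that of knockout 3, the knockout array with the lowest white fat median and the highest Mcl1 signal. With knockout 3 as the sole knockout array against wild type 2 and 3 the difference was -0.20, and leaving knockout 3 out along with wild type 1 gave -0.36. As with Bcl2, the arrays labelled knockout 1, knockout 2 and wild type 1 lay together, here as the 3 lowest. The macrophage list had medians of 7.89, 7.50 and 7.96 on the knockout arrays and of 8.19, 8.04 and 7.85 on the wild-type arrays, and 8 of its 8 genes had a lower mean in the knockout. The part of the white fat, stomach, lung and macrophage RNA in the Mcl1 signals was not tested.

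Bak1, an effector that forms pores in the mitochondrial outer membrane, had 1 array apart from the rest. Its signals were 7.13, 7.21 and 7.06 on the knockout arrays and 7.77, 7.12 and 7.16 on the wild-type arrays. Wild type 1 lay 0.63 above the mean of the other 5, which spanned only 7.06 to 7.21. Group means came to 7.13 ± 0.07 (SD, n = 3) in the knockout and 7.35 ± 0.36 (SD, n = 3) in the wild type, and the difference of -0.22 (SE 0.20, 95% interval -0.71 to 0.26, limma adjusted p = 0.921) came down to -0.01 (SE 0.11, 95% interval -0.27 to 0.25, limma adjusted p = 0.997) without that array. On these 5 arrays the SD of Bak1 was 0.06, smaller than that of all but 5.10% of the probe sets tested, while on all 6 arrays it was 0.26, with 60.4% of probe sets below it. The brown fat list had a median of 11.59 and the interferon-stimulated list of 8.05 on wild type 1, against at most 7.12 and 6.43 elsewhere, and their part in the Bak1 signal was not tested.

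The balance of an effector and a guardian is often read as a ratio, classically that of Bax to Bcl2. With Bax not analysed here, Bak1 minus Bcl2 was taken on each array in its place, after the values had been seen, and so without a test. This difference was 0.02, 0.03 and 0.06 on the arrays labelled knockout 1, 2 and 3, and 0.65, 0.08 and 0.17 on those labelled wild type 1, 2 and 3. Its absolute size depends on the probes, and only its shift between arrays can be read. The array labelled wild type 1 was apart, and the other 5 lay between 0.02 and 0.17.

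Among the BH3-only genes, Bid is the one tied directly to death receptors such as that of Trail. Its signals were 6.53, 6.44 and 6.51 on the knockout arrays and 6.76, 6.67 and 6.51 on the wild-type arrays. Wild type 1 and 2 were above every knockout array, and wild type 3 lay among them. Knockout signals averaged 6.50 ± 0.05 (SD, n = 3), and wild-type signals 6.65 ± 0.13 (SD, n = 3), a difference of -0.15 (SE 0.11, 95% interval -0.42 to 0.11, limma adjusted p = 0.921), and of -0.10 (SE 0.12) without wild type 1.

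Bcl2l11 encodes Bim, an activator of apoptosis that binds all guardians. Its signals of 6.23, 6.33 and 6.12 on the knockout arrays and 6.19, 6.30 and 6.31 on the wild-type arrays were nearly level. Group means came to 6.23 ± 0.10 (SD, n = 3) in the knockout and 6.27 ± 0.07 (SD, n = 3) in the wild type, and the difference was -0.04 (SE 0.11, 95% interval -0.30 to 0.22, limma adjusted p = 0.941). After Bcl2 it had the smallest SD over the 6 arrays among the members, 0.08.

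Bbc3 encodes Puma, a target of p53. It was the dimmest member and did not reach the signal limit of the test (a mean of 5.86), so its value comes from the fit over all 23410 annotated probe sets. It gave 5.72, 5.70 and 5.53 on the knockout arrays and 6.00, 5.45 and 5.83 on the wild-type arrays, which held both the highest and the lowest signal. Knockout signals averaged 5.65 ± 0.11 (SD, n = 3), and wild-type signals 5.76 ± 0.28 (SD, n = 3), a difference of -0.11 (SE 0.17, 95% interval -0.52 to 0.30, limma adjusted p = 0.951). Without wild type 1 the difference was 0.01 (SE 0.16).

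Bad couples growth factor signalling to the guardians and is silenced by phosphorylation. Its signals were 6.86, 6.63 and 6.50 on the knockout arrays and 6.80, 6.82 and 6.73 on the wild-type arrays. The knockout arrays spread over a wider range, and knockout 1 was the highest of all 6. Group means came to 6.66 ± 0.18 (SD, n = 3) in the knockout and 6.78 ± 0.05 (SD, n = 3) in the wild type, a difference of -0.12 (SE 0.12, 95% interval -0.43 to 0.19, limma adjusted p = 0.921). It was -0.22 without knockout 1 and -0.04 without knockout 3, the highest and the lowest array.

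Bik, a BH3-only protein that acts largely at the endoplasmic reticulum, had the largest positive difference of the 9. Its signals were 6.71, 6.48 and 6.11 on the knockout arrays and 6.33, 5.99 and 6.21 on the wild-type arrays. Knockout 1 and 2 were above every wild-type array, and knockout 3 was below wild type 1 and 3. Knockout signals averaged 6.44 ± 0.30 (SD, n = 3), and wild-type signals 6.18 ± 0.17 (SD, n = 3), a difference of 0.26 (SE 0.19, 95% interval -0.21 to 0.72, limma adjusted p = 0.921), and of 0.33 (SE 0.20) without wild type 1. The difference was 0.12 without knockout 1, the array with lung genes, and 0.42 without knockout 3. Leaving out wild type 1 along with knockout 3 gave 0.50, and with knockout 3 as the sole knockout array against wild type 2 and 3 it was 0.01. Without wild type 1, Bik was also the most variable member, with an SD of 0.29 that exceeded 88.9% of the probe sets tested. As for Bcl2 and Bcl2l1, its 3 highest signals were on knockout 1, knockout 2 and wild type 1, the arrays with the highest white fat medians. Of these 3, wild type 1 had the highest white fat median (11.03) and the lowest Bik signal (6.33). The part of that tissue in the Bik signals was not tested.

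**Figure D3:**
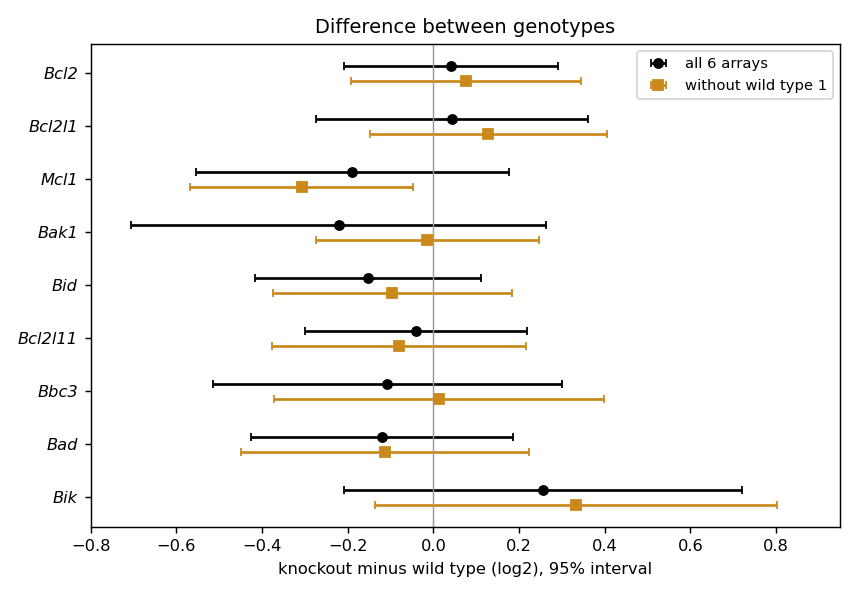
Difference between genotypes (knockout minus wild type, log2) of the 9 members, with 95% intervals from limma, on all 6 arrays (circles) and without the array labelled wild type 1 (squares). All intervals on 6 arrays include 0, Bak1 moves from -0.22 to -0.01 when that array is left out, and Mcl1 moves from -0.19 to -0.31.

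How far the array labelled wild type 1 reached into the family was read against the whole table. It gave the highest of the 6 signals for 4 of 9 members (44.4%), namely Bcl2l1, Bak1, Bid and Bbc3, against 37.9% of the probe sets tested. It was over 2-fold above every other array for 0 of 9 members, against 6.27%. Over the 6 arrays the members ranged between 0.18 (Bcl2) and 0.72 (Bik) log2 units, which is at most 1.65-fold from the lowest array to the highest.

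The other genes of the pathway were taken from 4 lists of 52 symbols, of which 44 were found with a probe set of their own. Of these, 38 lay above the signal limit, and the other 6 (Bcl2l10, Bcl2a1c, Pmaip1, Bcl2l14, Bcl2l15 and E2f1) were taken, like Bbc3, from the fit without it, whereas the shares over all probe sets cover those above the limit. None of the 44 passed in limma at an adjusted p under 0.05, in either direction, and 2 (4.55%), Diablo and Jun, had an unadjusted p under 0.05, with 0.634% over all probe sets tested as given above. As fractions, both shares lie under the threshold of 0.05 itself. The share among the 44 is the larger, but it rests on 2 genes, and the difference between the shares was not tested. The knockout was lower for 30 (68.2%) and higher for 14, beside 56.5% lower over all probe sets tested. The groups did not overlap for 4 genes (9.09%, against the 5.6% above), all 4 lower in the knockout: Bcl2l12, Diablo, Endog and Jun. Without the array labelled wild type 1, 25 were lower and 19 higher, beside 58.4% lower over all probe sets tested. In limma 1 of the 44 then had an unadjusted p under 0.05, against 1.54% of all probe sets tested. For 7 (15.9%) every knockout array was below every wild-type array, against the 8.45% above.

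Among further Bcl-2 relatives, 13 of 16 symbols were found, 7 higher and 6 lower in the knockout, with a median difference of 0.04. Pmaip1 encodes the BH3-only protein Noxa and, at signals under the limit, gave 5.73, 6.02 and 5.73 on the knockout arrays against 5.49, 5.32 and 5.76 on the wild-type arrays, a difference of 0.30 (SE 0.16). Knockout 1 and 3 lay just below wild type 3, so the groups overlapped. Bmf and Hrk, further BH3-only genes, differed by 0.10 (SE 0.16) and 0.14 (SE 0.17), and Bok, an effector relative, by 0.14 (SE 0.12). Bnip3 and Bcl2l13, which also mark mitochondria for removal, each differed by -0.28 (SE 0.18 and 0.17), and by -0.15 and -0.17 without wild type 1, where they were highest at 10.42 and 8.71. A second, dimmer Bnip3 probe set differed by -0.39 (SE 0.18) on all arrays, in the fit without the signal limit. Bcl2l12 gave 6.88, 6.81 and 6.86 on the knockout arrays and 7.07, 6.89 and 6.92 on the wild-type arrays, a difference of -0.11 (SE 0.10). Its groups were separate by a narrow margin. Bcl2l14, also under the limit on average, reached 6.19 on knockout 2, the array with stomach genes, and at most 5.19 elsewhere.

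The mitochondrial pathway list holds mostly genes that act once the pore has opened. It also holds the outer membrane channel genes Vdac1, Vdac2 and Vdac3 and the caspase inhibitor gene Xiap. The 11 measured genes of this list (of 13 symbols) were all lower in the knockout, with a median of -0.19. Without the array labelled wild type 1, however, the count was 7 lower and 4 higher and the median -0.07. That array gave the highest signal for 9 of the 11. Cycs, cytochrome c, which is also part of the respiratory chain, gave 12.12 there and 10.27 to 10.96 elsewhere, and Aifm1, a mitochondrial flavoprotein, gave 9.98 there and at most 8.42 elsewhere. The brown fat list, whose tissue is rich in mitochondria, had its median of 11.59 on the same array, and its part in these values was not tested.

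Diablo, which frees caspases from their inhibitors, kept the groups apart on all 6 arrays. It gave 6.50, 6.52 and 6.66 on the knockout arrays and 7.19, 6.94 and 6.72 on the wild-type arrays. The gap between knockout 3 and wild type 3 was narrow. The difference was -0.39 (SE 0.15, limma adjusted p = 0.921), and without wild type 1 it was -0.27 (SE 0.13, limma adjusted p = 0.997). Endog, a mitochondrial nuclease, differed by -0.31 (SE 0.22) and by -0.07 (SE 0.11) without wild type 1, where it was highest at 7.10.

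The death receptor link, through which Trail would reach Bid, had 5 of 6 symbols measured, all 5 lower in the knockout with a median of -0.15, and 3 lower and 2 higher with a median of -0.02 without wild type 1. Tnfrsf10b, the mouse receptor of Trail, gave 6.02, 6.06 and 6.01 on the knockout arrays and 6.72, 5.98 and 6.12 on the wild-type arrays. Only wild type 1 was apart. The death receptor gene Fas gave 8.35 on that array and 6.58 to 7.00 elsewhere. Casp8, the protease that cleaves Bid, gave 7.58, 7.89 and 7.85 on the knockout arrays and 8.01, 7.99 and 7.63 on the wild-type arrays, a difference of -0.10 (SE 0.16).

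Regulators of the family had 15 of 17 symbols measured, 8 lower and 7 higher in the knockout, with a median of -0.04. Jun, a transcription factor of the early stress response that can induce Bcl2l11, gave 9.24, 9.23 and 9.44 on the knockout arrays and 9.74, 9.60 and 9.58 on the wild-type arrays. Every knockout array was below every wild-type array. Its difference was -0.33 (SE 0.12, limma adjusted p = 0.921), and -0.28 (SE 0.12, limma adjusted p = 0.997) without wild type 1.

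Without the array labelled wild type 1, Mapk8, the kinase that activates Jun, differed by -0.32 (SE 0.14), Ddit3, a factor of the unfolded protein response, by -0.29 (SE 0.16), and Mdm2, the p53 ligase, by -0.20 (SE 0.11), each with every knockout array below wild type 2 and 3, as for Mcl1. On all 6 arrays these genes overlapped, at -0.11, -0.20 and -0.11. The kinase gene Pim1 was at 9.93 on wild type 1 and at most 8.77 elsewhere. Trp63, a relative of p53 that is also a squamous epithelium marker, was at 5.65 on wild type 1 and at least 8.17 elsewhere, where the squamous list was also high.

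**Figure D4:**
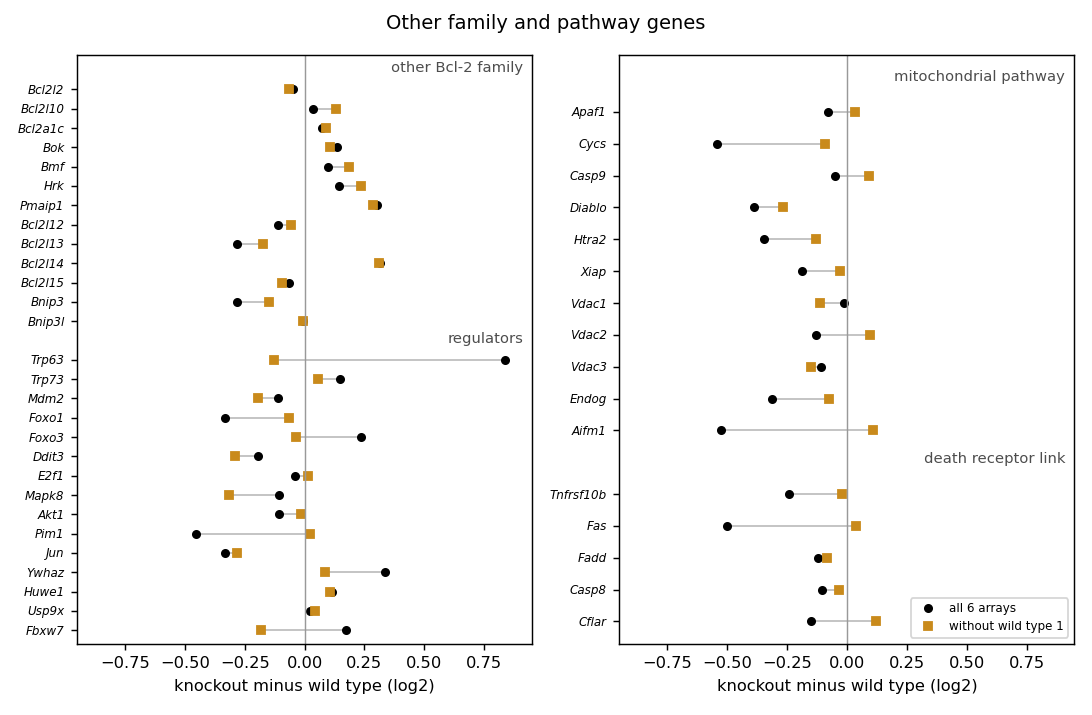
Difference between genotypes (knockout minus wild type, log2) of 44 further family and pathway genes in 4 lists, on all 6 arrays (circles) and without the array labelled wild type 1 (squares), joined by a line for each gene. Genes of the mitochondrial pathway and death receptor link lie left of 0 on 6 arrays and spread to both sides without that array, and Diablo and Jun stay left of 0 in both.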

How the data were processed

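Values are those of the table the authors deposited, 1 log2 signal per probe set and array for 35399 probe sets. No label gives the log base, which was taken as 2 because values span 1.55 to 13.96. The submitters' processing notes name MAS5, without a role. No source used here gives the background correction or the array scaling, and both could change small differences of dim genes. Gene names came from the platform annotation (23410 listed, 1621 with several symbols and not used by name, 11989 unnamed and not tested). The 40% dimmest annotated probe sets were left out, which left 14046. limma 3.58.1 (R 4.3.3) fitted the genotype difference with a moderated test, a variance trend on signal and Benjamini-Hochberg adjustment (threshold 0.05). Intervals are at 95% and not adjusted. A gene with several probe sets was represented by that of the highest mean. The fit was also run on simulated data with errors independent between probe sets. On these arrays whole lists of tissue markers moved together, such as the skeletal muscle markers on wild type 1. The simulated run therefore does not show how the fit behaves here. Named were all members, the listed genes whose groups did not overlap (up to 4 a list), up to 3 listed genes an array that stood over 2-fold apart, and further listed genes chosen after their values were seen to show each role. Members and gene lists were chosen with earlier results of these data known. Alternatives covered scaling, filter, moderation, weights, a pseudocount, a replicate block and arrays left out. Precision is limited by there being 3 arrays a group. Protein sequences were not used here.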

Additional observations from a re-analysis of the deposited data

How the results depend on the processing

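Of 198 recalculated member differences over 22 settings, 190 kept direction and side of the threshold and 8 changed sign, with the lowest limma adjusted p at 0.612. The filter, moderation and replicate block settings leave the difference itself unchanged, so those runs could not change a sign. All 8 sign changes came from runs with arrays left out. The count of members past the threshold was 0 in every setting run over the 6 arrays or with 1 array left out, as was the count of probe sets. Left out 1 at a time, the arrays gave Bcl2l1 differences from -0.025 (without wild type 3) to 0.13, Bbc3 from -0.26 to 0.013 (without wild type 1) and Bcl2l11 from -0.093 to 0.011 (without knockout 3). The same ranges were 0.0030 to 0.091 for Bcl2, -0.31 to -0.10 for Mcl1, -0.33 to -0.014 for Bak1, -0.22 to -0.096 for Bid, -0.22 to -0.037 for Bad and 0.12 to 0.42 for Bik. Without wild type 1 and knockout 3, Bak1 was at 0.023 and Bbc3 at 0.075, and without wild type 1 and 3 they were at 0.0055 and 0.20. Knockout 3 against wild type 2 and 3, chosen after seeing the data and with the lone array assumed to vary like the others, gave -0.022 for Bcl2, and 0 members but 4 probe sets past the threshold. Probe sets with an unadjusted p under 0.05 numbered 89, and 295 without the filter, 53 under a 60% filter, 184 unmoderated, 611 with array weights and 27 to 236 with 1 array left out. Without wild type 1 and knockout 3 they numbered 1114, with 0 past the adjusted threshold. Scaling by quantiles or medians changed no sign but moved small values by over 1.5 times. Median centring gave 0.0073 for Bcl2, 0.0086 for Bcl2l1 and -0.075 for Bcl2l11, and quantile scaling gave 0.093 for Bcl2l1, -0.18 for Bbc3, -0.087 for Bcl2l11 and -0.12 for Mcl1. Mcl1 ran from -0.37 to -0.10 (array weights -0.29) and Bik from 0.01 to 0.50. The lowest limma unadjusted p was 0.010 for Mcl1 (array weights, adjusted 0.883) and 0.020 for Bik (without wild type 1 and knockout 3, adjusted 0.612). Those are the settings with 611 and 1114 probe sets under 0.05. No other member had an unadjusted p under 0.05 in any setting. Samples share numbers across groups, with deviations of same-numbered arrays correlated at 0.09, -0.23 and 0.20, so samples were taken to share only a number, and a replicate block gave 0 members and 0 probe sets. The array weights were estimated without full convergence. The planned Bax minus Bcl2 comparison was not run, since Bax is not in the annotation used, and averaging probe sets of a member changes nothing with 1 each.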
